A study of Mus with 51 samples.

Results

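Atf4 and 9 genes known as targets of the transcription factor it encodes were followed through 18 groups of mouse cells sorted as CD4 T cells. The 10 genes were Atf4, Ddit3, Chac1, Trib3, Asns, Sesn2, Cth, Ddit4, Pycr1 and Aldh18a1, and they were taken by name from the 34923 genes of the deposited count table. All 10 were among the 17211 genes with enough counts to be tested. Chac1 and Cth were at or near 0 in the unstimulated groups and had enough counts through the stimulated ones.

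ATF4 is a transcription factor of the integrated stress response. Kinases that sense amino acid shortage, unfolded protein in the endoplasmic reticulum, double-stranded RNA or heme shortage phosphorylate the initiation factor eIF2, general translation falls, and the Atf4 mRNA is then translated more efficiently through its upstream open reading frames. ATF4 protein in turn raises the transcription of genes for amino acid uptake and synthesis, for redox balance and for feedback on the response, and in T cells the same genes are known to be engaged when antigen starts growth and division. The counts measure RNA only, so phosphorylation of eIF2, translation of Atf4 and the amount of ATF4 protein were not measured.

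The cells came from lymph nodes of mice labelled 5C.C7 TCR transgenic, of the line B10.A-Rag2tm1FwaH2-T18aTg with the Tcra5CC7 and Tcrb5CC7 transgenes (lwep), so all groups share the T cell receptor transgene and the Rag2 mutation; the labels give no age, and they do not say whether libraries of a group came from separate mice. The 5C.C7 receptor recognises MCC, a peptide of moth cytochrome c, as its agonist. GP is the other peptide; the labels leave its name unexpanded, and the title of the series speaks of endogenous self-peptides. Cells were taken at 1, 6 and 24 h without peptide (NP), with GP, with MCC, or with both peptides (MCC+GP), and those given MCC were sorted as high or low for CD69, an early activation marker of T cells, into MCC CD69-hi, MCC CD69-lo, MCC+GP CD69-hi and MCC+GP CD69-lo. Each group had 3 libraries, except NP, GP and MCC CD69-lo at 6 h with 2, which gives 51 libraries of polyadenylated RNA. The p-values therefore measure the spread between these libraries, which may be technical in part.

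The libraries held between 29030 and 10278776 counts over genes, with a median of 5436653. The shallowest group was MCC+GP CD69-lo at 24 h, with 237390, 29030 and 301455 counts, and every value of that group is limited accordingly. The T cell markers Cd3e and Cd4 were detected in all 51 libraries, with Cd4 between 71.7 and 703 counts per 1000000 counts (CPM). The summed level of 18 B cell markers was 3159 to 5072 CPM in MCC CD69-hi at 1 h against 512 to 734 in NP. A Rag2 mutation is known to block B cell development, and the labels give a Rag2 mutation for the strain. The labels used here do not say whether other cells were in the cultures, and the source of the B cell marker RNA was not tested. In MCC+GP CD69-lo at 24 h the 22 myeloid and dendritic cell markers summed to 9099 to 12136 CPM, against 2000 to 2819 in MCC CD69-lo. The 12 CD4 T cell markers of that MCC+GP group summed to less, 1773 to 2894 CPM. In such bulk samples fewer cells of a type and less RNA per cell cannot be told apart.

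The 10 genes lie on 8 chromosomes and all are protein-coding in the RefSeq annotation of GRCm38.p6. Atf4 is at chr15:80255184-80257545, Ddit3 at chr10:127290793-127296291 and Ddit4 on the same chromosome at chr10:59949675-59951770. Chac1 and Trib3 share chromosome 2, at chr2:119351242-119354326 and chr2:152337425-152344060. Asns is at chr6:7675165-7693209, Sesn2 at chr4:132492804-132510456 and Cth at chr3:157894248-157925081. The genes of proline synthesis, Pycr1 and Aldh18a1, are at chr11:120638998-120643748 and chr19:40550257-40588463. These spans cover each whole gene, exons and introns together, and the counts are of reads assigned to the gene. The ends of Ddit3 overlap those of Mbd6 and Mars1, and the pseudogene Gm15801 lies within Aldh18a1, so reads in the shared stretches are uncertain.

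At 6 h after MCC, 9 of the 10 genes were higher in CD69-hi cells than in cells without peptide, and at 24 h 8 were higher and 1, Trib3, was lower. Asns, which makes asparagine, was 50.4-fold higher at 6 h and 129-fold higher at 24 h, and Sesn2, a brake on mTORC1, was 12.9-fold and 17.1-fold higher. At 1 h only Atf4, Chac1 and Asns passed the test. The genes did not keep 1 time course: Ddit3 was raised at 6 h and back at the unstimulated level at 24 h, while Cth was near 0 until 6 h and reached 54.7 CPM ± 10.1 (SD, n = 3) at 24 h. Levels are given as CPM normalised for library composition, differences as log2 fold changes with their standard error (SE), and a gene counts as changed when the adjusted p of edgeR's quasi-likelihood test, corrected over all 17211 genes, is at most 0.05.

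**Figure D1:**
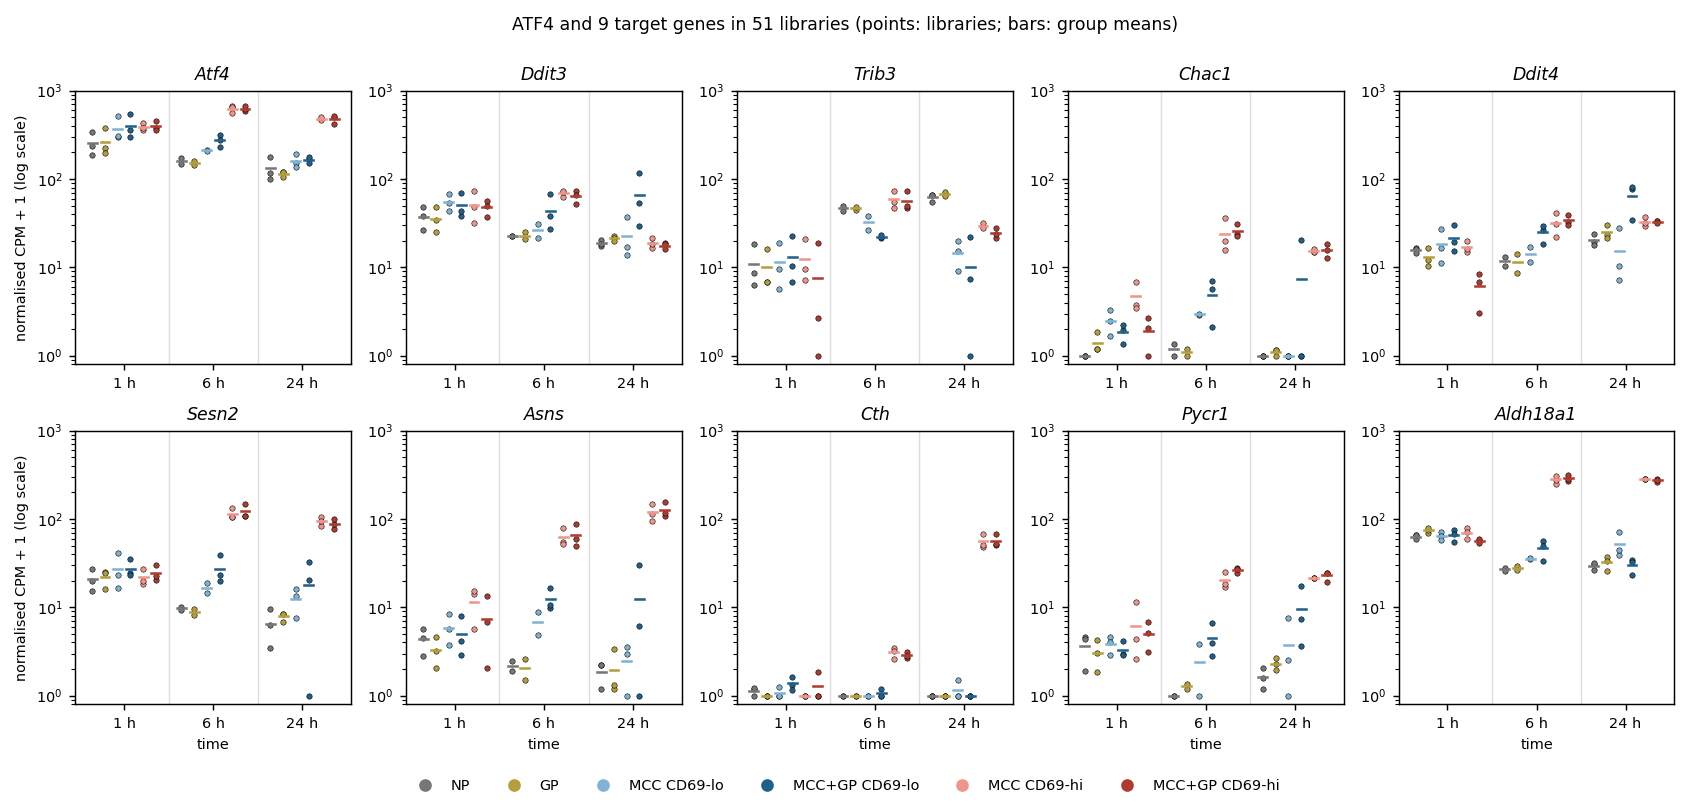
Level of each of the 10 genes in each of the 51 libraries, as normalised CPM + 1 on a log axis, by time and, in colour, by peptide and sort; each point is a library and each bar the group mean. The CD69-hi groups of 6 and 24 h stand above the other groups for Sesn2 and Aldh18a1, and Trib3 is highest in GP and NP at 24 h (66.4 and 61.8 CPM).

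The background of the test differed strongly between the hours. Between MCC CD69-hi and NP, 29.4% of all tested genes passed at 1 h, 46.7% at 6 h and 57.8% at 24 h. The 3 of 10 members called at 1 h are near the first of these shares, and the 9 of 10 called at 6 and at 24 h are above theirs. The members were chosen with earlier results of these data known, so standing above these shares is a description and no independent support. The median log2 difference of the 10 members was 0.31 at 1 h, 3.56 at 6 h and 3.70 at 24 h, beside medians of -0.05, 0.00 and -0.14 over all tested genes. With the genes that were at 0 in NP set to their fold over a floor of 3 counts, the members' medians were 0.49 (9 genes with a value), 3.23 and 3.70. Counting only members detected in both groups, 2 of 8 were called at 1 h, 7 of 8 at 6 h and 7 of 8 at 24 h. The 8 of 6 h include Chac1 with 2 counts in NP, and the share over all genes detected in both groups was not counted.

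Atf4, which encodes the regulator itself, was already abundant without peptide. Its level in NP was 234, 343 and 187 CPM at 1 h, 173 and 147 at 6 h, and 177, 117 and 99.8 at 24 h. In MCC CD69-hi it was 359, 425 and 381 at 1 h, 561, 674 and 645 at 6 h, and 476, 461 and 504 at 24 h. The CD69-hi libraries were above every NP library of the same hour, by little at 1 h and by a wide gap later. The log2 difference was 0.61 (SE 0.22, adjusted p = 0.029) at 1 h, 1.97 (SE 0.25, adjusted p = 5.6e-09) at 6 h and 1.88 (SE 0.22, adjusted p = 2.7e-10) at 24 h, which are 1.52-, 3.91- and 3.67-fold. Without NP replicate 3, the lowest NP library of 1 h, the 1 h difference was 0.43 and did not pass (adjusted p = 0.184). Over all 18 groups Atf4 spanned 5.48-fold, from 114 CPM in GP at 24 h to 627 in MCC CD69-hi at 6 h, and was detected in every library.

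Chac1 encodes an enzyme that breaks down glutathione, and it was close to absent without agonist. No read was counted in any NP library of 1 or 24 h, and the NP libraries of 6 h had 0 and 0.352 CPM. In MCC CD69-hi it was 2.76, 5.83 and 2.47 CPM at 1 h, 14.9, 18.9 and 34.8 at 6 h, and 13.9, 14.1 and 15.2 at 24 h. Every MCC CD69-hi library held the transcript at every hour. Against a floor of 3 counts over the NP group it was at least 19.9-fold higher at 1 h (20 counts in CD69-hi, adjusted p = 2.1e-05) and at least 81.1-fold higher at 24 h (adjusted p = 5.2e-12). At 6 h NP held 2 counts, and the ratio was 137 with a 95% counting interval of 37.8 to 1137. The same transcript was at 1.07, 0 and 1.69 CPM in MCC+GP CD69-hi at 1 h, from 3 counts in all.

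Asns, asparagine synthetase, had the widest range of the genes that every group held. NP libraries had 3.53, 1.80 and 4.71 CPM at 1 h, 1.48 and 0.879 at 6 h, and 1.21, 0.188 and 1.22 at 24 h. MCC CD69-hi libraries had 13, 4.66 and 14.2 at 1 h, 53.8, 51.2 and 78.6 at 6 h, and 146, 94.2 and 114 at 24 h. The groups overlapped at 1 h only, where the lowest CD69-hi library lay just under the highest NP library. The log2 difference went from 1.83 (SE 0.55, adjusted p = 0.0098) to 5.66 (SE 0.64, adjusted p = 8.4e-10) and 7.01 (SE 0.56, adjusted p = 7.2e-14). Without MCC CD69-hi replicate 3 of 1 h the difference was 1.73 and missed the threshold (adjusted p = 0.0592). With the summed B cell markers as a covariate it was 0.08 (adjusted p = 0.98) at 1 h, where those markers also separate the groups. The slope of this covariate, here and below, came only from differences between libraries of the same group. In each group its lowest value was in the same round of plate wells, so B cell RNA and round cannot be told apart in it. Within MCC CD69-hi, Asns rose again between 6 and 24 h by a log2 difference of 0.95 (SE 0.36, adjusted p = 0.034), but leaving out any of 4 of the 6 libraries ended that call.

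Sesn2 encodes a leucine-binding sestrin that restrains mTORC1. In NP it was 14.4, 26.0 and 18.9 CPM at 1 h, 9.06 and 8.44 at 6 h, and 8.64, 2.45 and 5.32 at 24 h. In MCC CD69-hi it was 26.4, 17.5 and 18.9 at 1 h, 104, 104 and 132 at 6 h, and 81.4, 104 and 94.8 at 24 h. The groups overlapped at 1 h and were far apart at 6 and 24 h. The log2 difference was 0.12 (SE 0.32, adjusted p = 0.82) at 1 h, 3.69 (SE 0.36, adjusted p = 2e-12) at 6 h and 4.10 (SE 0.32, adjusted p = 1.2e-15) at 24 h.

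Cth, the cystathionine gamma-lyase that yields cysteine, was the latest of the set. It was at 0 in every GP library and in the NP libraries of 6 and 24 h, and in MCC CD69-hi it was at 0 in all 3 libraries of 1 h, at 2.49, 2.22 and 1.58 CPM at 6 h (14, 16 and 11 counts), and at 66.3, 47.7 and 50.2 at 24 h. The 6 h libraries of both CD69-hi groups held a few reads each, and the 24 h libraries held 1151 in all in MCC CD69-hi. Against the floor of the NP group it was at least 8.22-fold higher at 6 h (adjusted p = 6.9e-06) and at least 308-fold higher at 24 h (adjusted p = 1.9e-18). Between 6 and 24 h it rose 26.0-fold within MCC CD69-hi, a log2 difference of 4.70 (SE 0.38, adjusted p = 8.4e-14), which every left-out library preserved.

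Aldh18a1 and Pycr1 encode the enzymes that open and close proline synthesis from glutamate. Aldh18a1 in NP was 58.4, 64.2 and 64.3 CPM at 1 h, 27.2 and 24.6 at 6 h, and 25.5, 29.6 and 30.5 at 24 h. In MCC CD69-hi it was 58.7, 78.1 and 69.9 at 1 h, 250.1, 278 and 309 at 6 h, and 281, 283 and 283 at 24 h. The groups overlapped at 1 h, and at 6 and 24 h every CD69-hi library was far above every NP library. Its log2 difference was 0.12 (SE 0.17, adjusted p = 0.63), then 3.43 (SE 0.20, adjusted p = 9.3e-22) and 3.30 (SE 0.17, adjusted p = 1.4e-24). Pycr1 stood at 0.922, 3.60 and 3.43 CPM in NP at 1 h, at 0 in both libraries of 6 h, and at 0.603, 0.188 and 1.06 at 24 h. MCC CD69-hi libraries had 1.57, 10.5 and 3.40 CPM of Pycr1 at 1 h, 16.0, 24.0 and 17.4 at 6 h, and 20.7, 20.7 and 20.3 at 24 h. Both genes moved between 1 and 6 h, and neither was called from 6 to 24 h within MCC CD69-hi. Over those later hours the log2 change was 0.02 for Aldh18a1 (95% interval -0.28 to 0.32). For Pycr1 it was 0.10, with a wider interval (-0.78 to 0.98). Pycr1 was at least 75.0-fold higher than NP at 6 h (adjusted p = 1.8e-09) and differed by 4.94 on the log2 scale at 24 h (SE 0.63, adjusted p = 1.2e-09).

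Ddit3, which encodes the stress factor CHOP, was transient. NP libraries had 25.5, 46.6 and 36.9 CPM at 1 h, 21.7 and 21.8 at 6 h, and 19.3, 16.6 and 17.5 at 24 h. MCC CD69-hi libraries had 31.1, 47.8 and 71.7 at 1 h, 61.1, 70.6 and 72.4 at 6 h, and 15.6, 20.7 and 17.6 at 24 h. Only at 6 h were the groups apart. The log2 difference was 0.49 (SE 0.31, adjusted p = 0.24) at 1 h, 1.64 (SE 0.34, adjusted p = 8.1e-05) at 6 h and 0.01 (95% interval -0.61 to 0.64) at 24 h. Within MCC CD69-hi, Ddit3 fell by 1.92 on the log2 scale from 6 to 24 h (SE 0.30, adjusted p = 1.2e-06). At 1 h the Ddit3 call depended on the library and the model: without MCC CD69-hi replicate 1 the difference was 0.88 (adjusted p = 0.04), and with the B cell covariate it was 1.72 (adjusted p = 0.0021).

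Trib3 encodes a pseudokinase that binds AKT and feeds back on ATF4, and it took a course of its own. Without peptide it rose with time, with 7.53, 17.2 and 5.36 CPM at 1 h, 42.3 and 49.1 at 6 h, then 54.1, 65.5 and 65.8 at 24 h. In MCC CD69-hi it was 8.66, 19.8 and 6.18 at 1 h, 46.4, 54.5 and 73.1 at 6 h, and 28.0, 27.0 and 30.5 at 24 h. The groups overlapped at 1 and 6 h, and at 24 h every CD69-hi library lay below every NP library. The log2 difference was -0.06 (SE 0.57, adjusted p = 0.97), 0.35 (SE 0.45, adjusted p = 0.57) and -1.12 (SE 0.41, adjusted p = 0.019). With the B cell covariate the 6 h difference was 1.14 and passed (adjusted p = 0.037). Within MCC CD69-hi Trib3 rose 6.05-fold from 1 to 6 h ( adjusted p = 1e-04), and its decline to 24 h was -1.03 (SE 0.41, adjusted p = 0.045), a call that 5 of the 6 left-out libraries ended.

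Ddit4, which encodes the mTORC1 inhibitor REDD1 and also answers to glucocorticoids and hypoxia, had the smallest difference among the genes called at 6 h. NP libraries had 15.5, 15.2 and 13.7 CPM at 1 h, 9.39 and 12.1 at 6 h, and 18.3, 23.2 and 16.9 at 24 h. MCC CD69-hi libraries had 13.8, 18.6 and 15.2 at 1 h, 30.0, 21.3 and 39.9 at 6 h, and 28.3, 36.0 and 30.7 at 24 h. The groups overlapped at 1 h and not later. The log2 difference was 1.50 (SE 0.35, adjusted p = 3e-04) at 6 h and 0.71 (SE 0.29, adjusted p = 0.035) at 24 h. The 24 h call on Ddit4 was lost without MCC CD69-hi replicate 2 (0.58, adjusted p = 0.13) or 3 (adjusted p = 0.0579) and without NP replicate 1 (adjusted p = 0.0874) or 3 (adjusted p = 0.12). It was also lost with RLE size factors (0.55, adjusted p = 0.091), with DESeq2 (adjusted p = 0.124) and with the B cell covariate (0.09, adjusted p = 0.857).

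**Figure D2:**
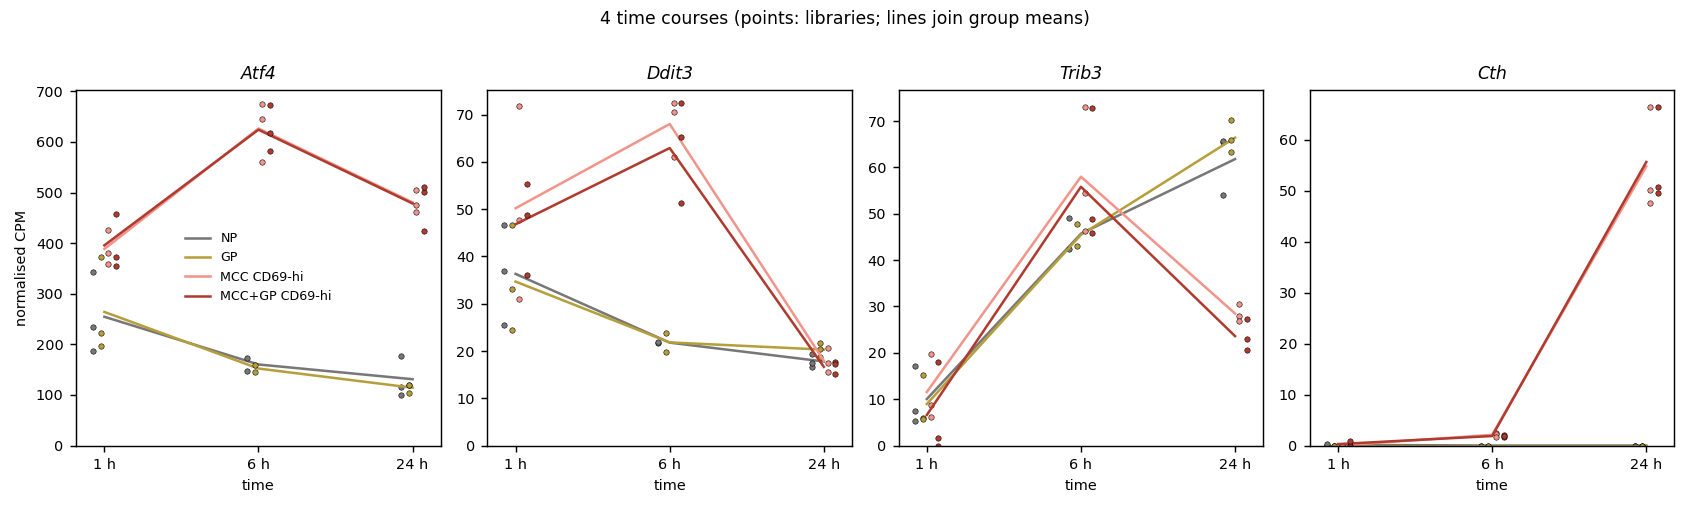
Normalised CPM of Atf4, Ddit3, Trib3 and Cth (linear axes from 0) at 1, 6 and 24 h in NP, GP, MCC CD69-hi and MCC+GP CD69-hi; points are libraries and lines join group means. The group mean of Ddit3 is highest at 6 h in the CD69-hi groups, though its rise from 1 h was not called in MCC CD69-hi. Trib3 means climb in NP and GP and are lower at 24 h than at 6 h in CD69-hi cells. Most left-out libraries ended the call on that Trib3 decline in MCC CD69-hi. Cth reaches 54.7 and 55.6 CPM at 24 h from about 2 CPM at 6 h.

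The change of the MCC difference with time was tested directly. From 1 to 6 h the MCC CD69-hi minus NP difference grew for 8 of the 10 genes, against 29.9% of all genes called in either direction. Aldh18a1 grew by 3.30 (SE 0.25, adjusted p = 1.1e-15), Asns by 3.83 (SE 0.88, adjusted p = 0.00068), Sesn2 by 3.56 (SE 0.47, adjusted p = 2.8e-08) and Atf4 by 1.36 (SE 0.32, adjusted p = 0.00085) on the log2 scale. Ddit4 (1.45, SE 0.49, adjusted p = 0.019) and Ddit3 (1.15, SE 0.45, adjusted p = 0.05) also passed, but the Ddit3 call was lost with 8 of the 11 libraries left out in turn, with DESeq2 (0.97, adjusted p = 0.0993) and with RLE size factors (0.96, adjusted p = 0.0971), and the Ddit4 call with 5 of the 11 libraries. With the B cell covariate neither passed (Ddit3 0.47, adjusted p = 0.461, and Ddit4 0.86, adjusted p = 0.196). Cth and Pycr1 passed too, but their sizes rest on groups at 0. From 6 to 24 h 1 of the 10 passed, Ddit3 (-1.63, SE 0.46, adjusted p = 0.0075), against 22.9% of all genes, and Trib3 was at -1.46 (SE 0.61, adjusted p = 0.083). The Trib3 change passed with the replicate block (-1.46, adjusted p = 0.0192), with the compared groups alone (adjusted p = 7.8e-06) and with the B cell covariate (-3.18, adjusted p = 0.00171). Within MCC CD69-hi itself, 9 genes were higher at 6 h than at 1 h, against 40.6% of all genes, and Ddit3 was not among them (0.42, SE 0.30, adjusted p = 0.28). There Atf4 rose by 0.69 (SE 0.21, adjusted p = 0.0076) and Ddit4 by 0.98 (SE 0.33, adjusted p = 0.014), calls that each ended when any of 3 of the 6 libraries was left out. The summed B cell markers were at 3159 to 5072 CPM in MCC CD69-hi at 1 h and 808 to 1633 at 6 h. With them as a covariate Atf4 was at 0.19 (adjusted p = 0.57), Ddit4 at 0.32 (adjusted p = 0.553) and Pycr1 had an adjusted p of 0.0715, so none of the 3 passed. From 6 to 24 h within MCC CD69-hi 2 genes (Asns and Cth) were higher and 2 (Ddit3 and Trib3) were lower, against 38.2% of all genes. These within-group tests were added after the data had been seen.

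Cells that received MCC but were sorted as CD69-lo showed little of this. At 1 h 1 of the 10 genes, Chac1, was higher than in NP, against 3.15% of all genes; it was at 2.31, 0.678 and 1.44 CPM where NP had none, at least 7.96-fold higher (20 counts, adjusted p = 0.0056). Atf4 at 1 h was 513, 298 and 303 CPM in MCC CD69-lo, overlapping NP, with a log2 difference of 0.54 (SE 0.21, adjusted p = 0.22); without NP replicate 2 it was 0.85 (adjusted p = 0.0336). At 6 h edgeR called 0 of the 10, against 2.12% of all genes, and DESeq2 called 2. An unadjusted p under 0.05 in edgeR was found for 5 members, beside 1539 of 17211 genes. The closest were Asns, with 3.92 and 7.84 CPM and a log2 difference of 2.29 (SE 0.76, adjusted p = 0.13), and Chac1, with 1.87 and 2.00 CPM and a ratio of 11.4 (counting interval 2.80 to 99.995, adjusted p = 0.08). Pycr1 was at 0 and 2.84 CPM there, with all 17 counts in 1 library, and did not pass (adjusted p = 0.065). Its group mean was 5.56 times the floor of 3 counts for NP, which sets no lower bound here.

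At 24 h 2 genes were higher and 1 was lower in MCC CD69-lo than in NP, against 18.5% of all genes. Trib3 was at 14.2, 18.8 and 8.14 CPM, below every NP library, a log2 difference of -2.13 (SE 0.49, adjusted p = 0.0017). Aldh18a1 was at 69.9, 38.2 and 43.2 CPM, above every NP library, a difference of 0.76 (SE 0.18, adjusted p = 0.0016) that missed the threshold without MCC CD69-lo replicate 1 (0.50, adjusted p = 0.0515). Sesn2, at 12.3, 15.2 and 6.61 CPM, overlapped NP and differed by 1.10 (SE 0.39, adjusted p = 0.043); leaving out MCC CD69-lo replicate 2 gave 0.70 (adjusted p = 0.369), and replicate 1 of that group or NP replicate 2 or 3 also ended the call. Ddit4 in the same libraries was spread from 6.11 to 26.9 CPM; it was lower than NP without MCC CD69-lo replicate 2 (-1.39, adjusted p = 0.0168) and not called with it (-0.32, adjusted p = 0.55). Beside these values, the summed myeloid and dendritic markers were at 2000 to 2819 CPM in these libraries and 490 to 830 in NP, and their part in the differences was not tested.

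Compared directly, CD69-hi and CD69-lo cells given MCC differed from 6 h on. At 1 h edgeR called 0 of the 10 genes, against 12.5% of all genes, and DESeq2 called 0. In edgeR 1 member had an unadjusted p under 0.05 (Asns, 1.30, SE 0.53, adjusted p = 0.10), beside 4489 of 17211 genes. At 6 h 9 of the 10 were higher in CD69-hi, against 42.4% of all genes called. All 10 had no overlap between libraries, but the share of all genes without overlap was not counted. Aldh18a1 differed by 3.01 (SE 0.20, adjusted p = 1e-19), Asns by 3.36 (SE 0.51, adjusted p = 5.8e-07), Chac1 by 3.55 (SE 0.59, adjusted p = 1.4e-06), Pycr1 by 3.68 (SE 0.65, adjusted p = 4.5e-06), Sesn2 by 2.84 (SE 0.34, adjusted p = 6.7e-10) and Atf4 by 1.58 (SE 0.25, adjusted p = 6.5e-07). Ddit3 followed with 1.41 (SE 0.34, adjusted p = 0.00056), Cth was at least 7.93-fold higher, and Trib3 was the gene that did not pass (0.89, SE 0.47, adjusted p = 0.13), though it did in a fit of these groups alone (0.96, adjusted p = 0.0017). Ddit4 differed by 1.19 (SE 0.35, adjusted p = 0.0035), but by 0.94 without MCC CD69-lo replicate 1 (adjusted p = 0.0961).

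At 24 h 8 of the 10 were higher in MCC CD69-hi than in MCC CD69-lo, against 61.7% of all genes. Asns differed by 6.03 (SE 0.60, adjusted p = 3.6e-11) and Chac1, at 0 in all 3 CD69-lo libraries, was at least 29.4-fold higher. Cth had 1 count in CD69-lo and 1151 in CD69-hi, a ratio of 335 with a counting interval from 60.1 to 13254. Ddit3 (-0.36, SE 0.34, adjusted p = 0.35) and Trib3 (1.02, SE 0.49, adjusted p = 0.072) did not pass, although Trib3 had no overlap. Trib3 at 24 h thus stood at 61.8 CPM ± 6.68 without peptide, at 28.5 ± 1.80 in CD69-hi and at 13.7 ± 5.34 in CD69-lo cells given MCC (SD, n = 3 each). Ddit4 differed by 1.03 (SE 0.33, adjusted p = 0.0059) and by 0.65 without MCC CD69-lo replicate 3 (adjusted p = 0.10). With the B cell covariate the Ddit4 difference was 0.12 (adjusted p = 0.842) and that of Ddit3 was -1.32 (adjusted p = 0.00316), and with these groups alone Ddit4 missed the threshold (adjusted p = 0.0508) and Trib3 passed (1.00, adjusted p = 0.0139). The MCC comparisons share samples with one another, so each stands as its own value.

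**Figure D3:**
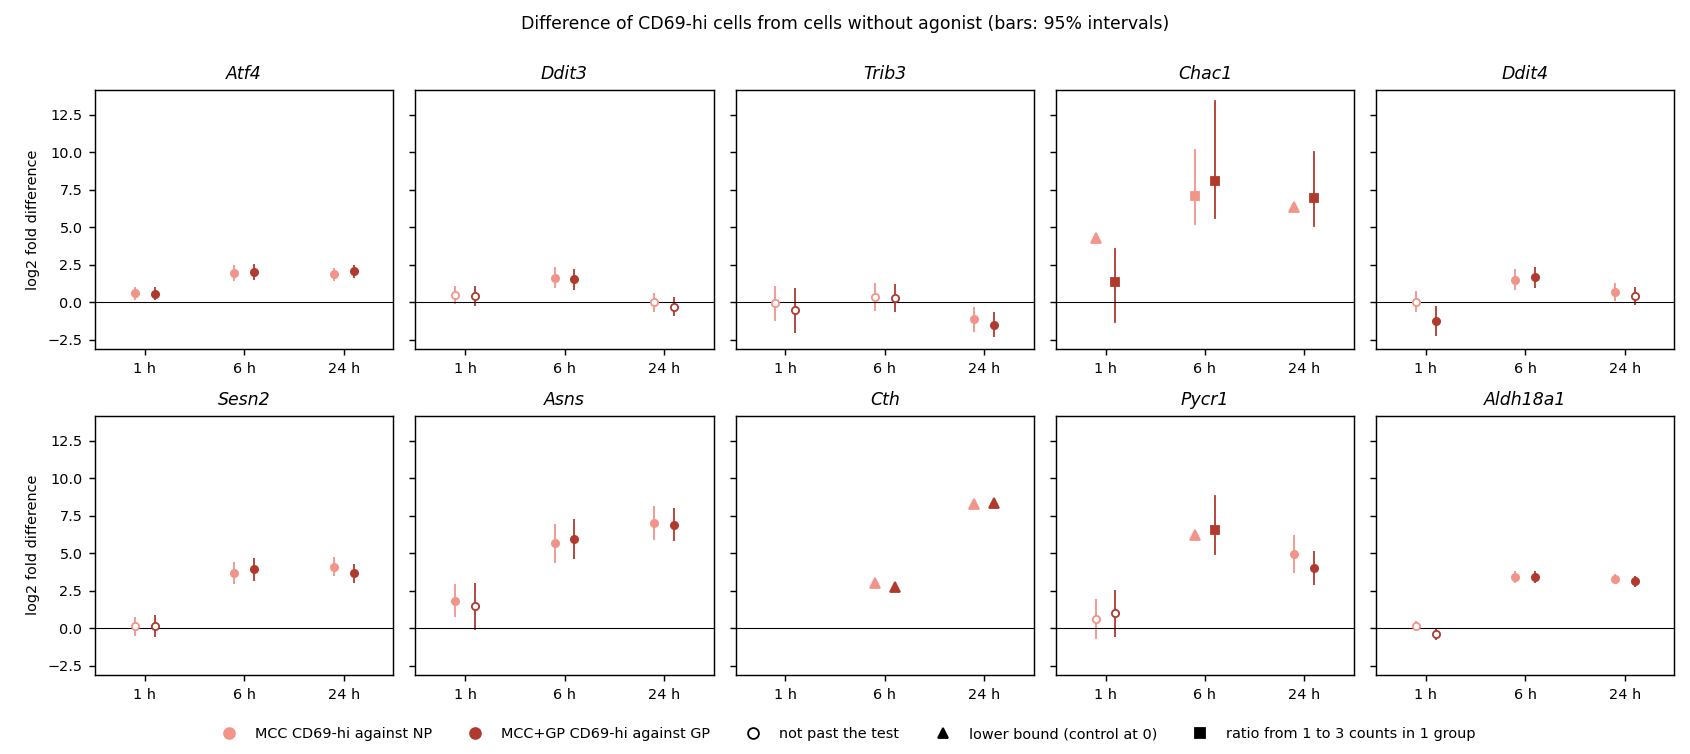
Log2 fold difference of each gene for MCC CD69-hi against NP and MCC+GP CD69-hi against GP at 1, 6 and 24 h, with 95% intervals; open circles did not pass the test, triangles are lower bounds where the control was at 0, and squares are ratios where a group had 1 to 3 counts. At 6 h Trib3 (0.35 and 0.30) is the gene that did not pass, and at 24 h it lies below 0 in both comparisons.

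The same agonist step in the presence of GP, was measured in other libraries, with a course of the same kind for most genes. For MCC+GP CD69-hi against GP, 1 gene was higher and 1 lower at 1 h, against 33.8% of all genes, 9 were higher at 6 h, against 46.7%, and 7 were higher and 1 lower at 24 h, against 58.5%. Atf4 in GP was 223, 373 and 196 CPM at 1 h, 145 and 159.7 at 6 h, and 119, 119.9 and 103 at 24 h. In MCC+GP CD69-hi it was 458, 373 and 356 at 1 h, 581, 619 and 673 at 6 h, and 501, 424 and 511 at 24 h. The log2 difference of Atf4 was 0.58 (SE 0.22, adjusted p = 0.034), then 2.04 (SE 0.26, adjusted p = 2.6e-09) and 2.07 (SE 0.22, adjusted p = 2.2e-11). The 1 h call was lost without GP replicate 1 (adjusted p = 0.0589) or 3 (0.41, adjusted p = 0.185) or MCC+GP CD69-hi replicate 1 (adjusted p = 0.0536).

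Asns moved by 5.94 (SE 0.66, adjusted p = 6.3e-10) at 6 h and 6.91 (SE 0.55, adjusted p = 5.6e-14) at 24 h. Sesn2 differed by 3.92 (SE 0.37, adjusted p = 6e-13) and 3.65 (SE 0.31, adjusted p = 1.8e-14), and Aldh18a1 by 3.43 (SE 0.20, adjusted p = 9.2e-22) and 3.12 (SE 0.17, adjusted p = 1.1e-23). Ddit3 passed at 6 h (1.53, SE 0.34, adjusted p = 0.00024) and not at 24 h (-0.28, SE 0.31, adjusted p = 0.44). Trib3 was lower at 24 h (-1.49, SE 0.41, adjusted p = 0.0023). Chac1 stood at a ratio of 271 (counting interval 48.4 to 10725) at 6 h and 124 (34.1 to 1029) at 24 h, and Pycr1 at 92.2 (31.3 to 449) at 6 h and a log2 difference of 4.04 (SE 0.56, adjusted p = 1.5e-08) at 24 h. Cth was at least 6.71-fold and at least 323-fold higher. The change from 1 to 6 h in this arm was called for 7 of the 10, against 31.4% of all genes, and that from 6 to 24 h for 3 in the lower direction, against 24.4%: Ddit3 (-1.81, SE 0.46, adjusted p = 0.0027), Trib3 (-1.79, SE 0.62, adjusted p = 0.031) and Ddit4 (-1.25, SE 0.46, adjusted p = 0.037). The Trib3 and Ddit4 calls were each lost with any of 5 of 11 libraries left out.

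Ddit4 and Chac1 had no overlap at 1 h between MCC+GP CD69-hi and MCC CD69-hi, though neither passed the test. The share of all genes without overlap was not counted. The level of Ddit4 was 7.46, 2.07 and 5.90 CPM in MCC+GP CD69-hi (7, 2 and 7 counts), below the 9.47, 15.6 and 11.2 of GP and the 13.8, 18.6 and 15.2 of MCC CD69-hi. Against GP the log2 difference was -1.23 (SE 0.50, adjusted p = 0.048), and leaving out any of the 6 libraries ended that call, as did every alternative fit, among them DESeq2 (-0.98, adjusted p = 0.107), the replicate block (-0.95, adjusted p = 0.115) and the B cell covariate (-0.12, adjusted p = 0.936). Against MCC CD69-hi it was -1.57 (95% interval -2.59 to -0.54), with no overlap between libraries, but did not pass over all genes (adjusted p = 0.11). The MCC+GP CD69-hi libraries of 1 h were shallow, at 930161 to 1105292 counts, so single reads weigh heavily on these values.

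GP by itself changed none of the 10 genes in these tests. For GP against NP, edgeR called 0 of 10 at 1 h, 6 h and 24 h, against 0%, 0% and 0.00581% of all genes, and DESeq2 called 0 at each hour. In edgeR 1, 0 and 0 members had an unadjusted p under 0.05, beside 138, 126 and 190 of 17211 genes. The 95% intervals give the size that remains possible: for Atf4 the log2 differences at 1, 6 and 24 h were 0.05 (-0.37 to 0.48), -0.07 (-0.60 to 0.45) and -0.20 (-0.63 to 0.24). Averaged over the hours it was -0.07 (-0.34 to 0.20) for Atf4, 0.14 (-0.07 to 0.35) for Aldh18a1, 0.10 (-0.31 to 0.52) for Sesn2, -0.02 (-0.56 to 0.53) for Trib3, -0.01 (-0.41 to 0.38) for Ddit4 and -0.17 (-1.20 to 0.86) for Asns, with 0 of 10 called by edgeR, 0 with an unadjusted p under 0.05, 0 called by DESeq2 and 0% of all genes called. Chac1 had 6 counts in GP and none in NP at 1 h and did not pass. Its GP mean was 2.17 times the floor of 3 counts for NP, which sets no lower bound.

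Adding GP to MCC changed no member past the test in CD69-hi cells. With and without GP among MCC CD69-hi cells, edgeR called 0 of 10 at 1, 6 and 24 h, against 0.680%, 0% and 0% of all genes, with 0 called by DESeq2 at each hour. In edgeR 1, 0 and 0 members had an unadjusted p under 0.05, beside 2828, 168 and 123 of 17211 genes. Atf4 differed by 0.03 (-0.41 to 0.47), -0.01 (-0.43 to 0.42) and -0.01 (-0.43 to 0.42) on the log2 scale. Cth at 24 h, the strongest rise of the set, was 66.4, 49.6 and 50.7 CPM with GP and 66.3, 47.7 and 50.2 without, a difference of 0.02 (-0.59 to 0.63). Chac1 at 1 h was lower in every MCC+GP library than in every MCC library, at 3 counts against 20, a ratio of 0.322 with a counting interval from 0.0612 to 1.08. Averaged over the hours, Atf4 differed by 0.01 (-0.24 to 0.25), Aldh18a1 by -0.10 (-0.28 to 0.09), Asns by -0.23 (-0.81 to 0.34) and Ddit4 by -0.48 (-0.92 to -0.04, adjusted p = 0.67), with 0 of 10 called by edgeR, 0 called by DESeq2 and 0.0116% of all genes called. In edgeR 1 member had an unadjusted p under 0.05, beside 1210 of 17211 genes.

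**Figure D4:**
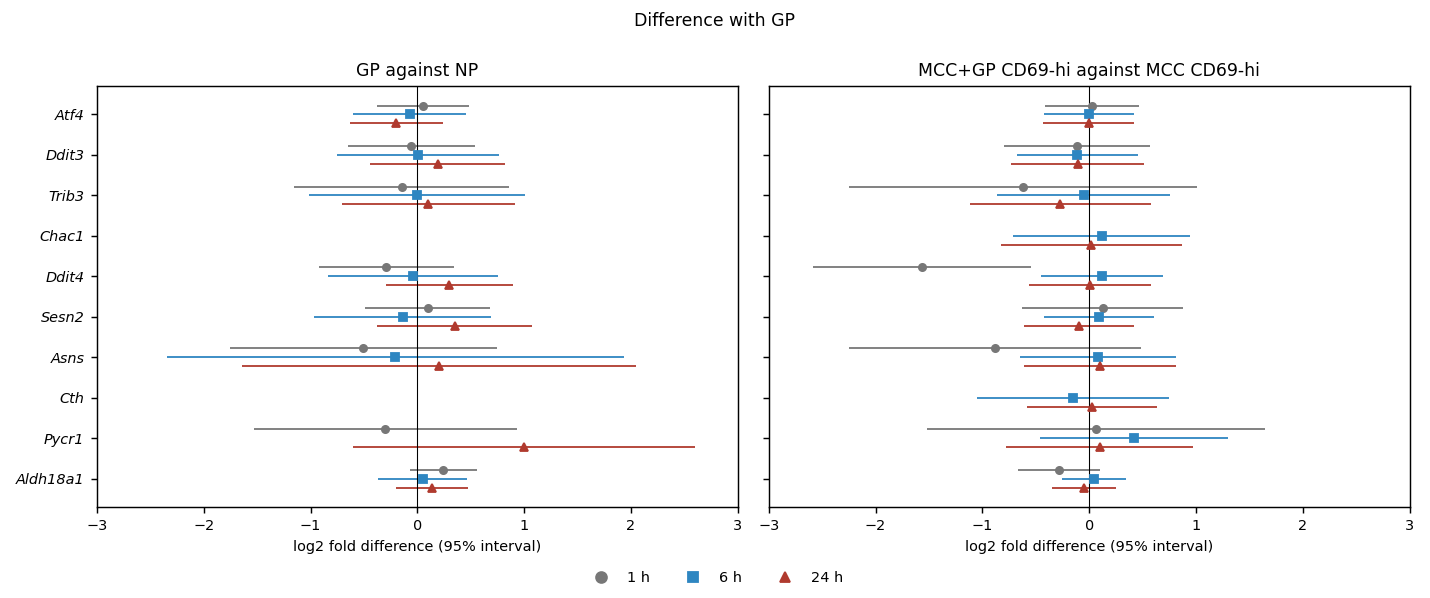
Log2 fold difference with 95% interval that went with GP at 1, 6 and 24 h, without MCC (GP against NP, left) and with it (MCC+GP CD69-hi against the same sort without GP, right); genes with a group at 0 or with 1 to 3 counts at that time are not drawn. Every interval drawn includes 0 except that of Ddit4 at 1 h with MCC (-2.59 to -0.54).

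Among CD69-lo cells, MCC+GP and MCC were compared as well. At 1 h edgeR called 0 of 10, against 0% of all genes, 0 members had an unadjusted p under 0.05 and DESeq2 called 0. At 6 h edgeR again called 0, against 0% of all genes, and DESeq2 called 0. In edgeR 4 members had an unadjusted p under 0.05, beside 971 of 17211 genes. These were Ddit3 (0.73, SE 0.34), Sesn2 (0.76, SE 0.33), Ddit4 (0.84, SE 0.35) and Aldh18a1 (0.39, SE 0.19), all higher with GP and all at an adjusted p of 0.87. Sesn2 there was 18.9, 22.4 and 38.1 CPM with GP against 13.4 and 18 without, and Ddit4 was 17.4, 25.8 and 28.5 against 10.6 and 15.9, with no overlap for either. The summed myeloid and dendritic markers of these 6 h libraries were 1667 to 2517 CPM with GP and 1585 to 1844 without, and the B cell markers 1623 to 2248 against 854 to 1303; their part was not tested.

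At 24 h 2 of 10 were higher, against 19.3% of all genes, in very shallow libraries. Ddit4 was 76.7, 33.1 and 80.8 CPM (24, 2 and 31 counts) against 9.45, 26.9 and 6.11 in MCC CD69-lo, without overlap, a log2 difference of 2.23 (SE 0.42, adjusted p = 8e-05). This group mean, 63.5 CPM ± 26.4 (SD, n = 3), was the highest of Ddit4 in the series. The Chac1 call rests on 6 reads of replicate 1, with 0 in the other libraries of both groups, and was lost without that library. Ddit3 (28.7, 116 and 52.2 CPM from 9, 7 and 20 counts) differed by 1.09 (SE 0.49, adjusted p = 0.11), and by 1.80 without MCC CD69-lo replicate 2 (adjusted p = 0.0122). Aldh18a1 was lower in each library but not called (-0.80, SE 0.32, adjusted p = 0.082), and was called without MCC CD69-lo replicate 2 (-0.99, adjusted p = 0.0275). In these libraries the 12 CD4 T cell markers summed to 1773 to 2894 CPM, against 4353 to 4478 in MCC CD69-lo, the 18 B cell markers to 2652 to 3526 against 818 to 1670, and the 22 myeloid and dendritic markers to 9099 to 12136 against 2000 to 2819. The part of these other cells in the Ddit4 value was not tested.

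With time and no peptide 6 of the 10 genes changed, 5 of them down and Trib3 up. Between NP at 24 and at 1 h the background was 24.0% of all genes, and the members had a median log2 difference of -1.07 beside 0.01 over all genes. Atf4 fell by 0.96 (SE 0.22, adjusted p = 6e-04), Aldh18a1 by 1.12 (SE 0.16, adjusted p = 2.7e-07) and Sesn2 by 1.85 (SE 0.33, adjusted p = 2.1e-05) on the log2 scale. Ddit3 fell by 1.02 (SE 0.31, adjusted p = 0.011) and Pycr1 by 1.95 (SE 0.73, adjusted p = 0.04). Trib3 rose by 2.63 (SE 0.45, adjusted p = 2.8e-05), or 6.18-fold. Asns (-1.88, SE 0.73, adjusted p = 0.053) and Ddit4 (0.39, SE 0.31, adjusted p = 0.40) did not pass. The Ddit3 call was lost without NP replicate 2 of 1 h (-0.76, adjusted p = 0.104) and that on Pycr1 without any of 4 of the 6 libraries and with the B cell covariate (-1.78, adjusted p = 0.0557), while Asns passed without NP replicate 2 of 1 h (adjusted p = 0.0426) and, at nearly the same size, with DESeq2 (adjusted p = 0.0143), the compared groups alone (adjusted p = 0.00996), the replicate block (adjusted p = 0.0228), the 3 shallowest libraries left out (adjusted p = 0.0496) and the B cell covariate (adjusted p = 0.0117). In a fit of these NP libraries alone Atf4 did not pass (adjusted p = 0.117).

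Across the 18 groups, neighbours in the order of group means mostly overlapped. For Atf4, the 6 h CD69-hi groups (627 ± 59 and 624 ± 46.0 CPM) came first without overlap with the next, the CD69-hi groups of 24 h (481 ± 21.9 and 478 ± 47.8), and in all 2 of its 17 neighbouring pairs did not overlap. Trib3 was highest in GP at 24 h (66.4 ± 3.50) and NP at 24 h (61.8 ± 6.68), and Ddit3 had no neighbouring pair without overlap. For Cth the CD69-hi groups of 24 h were followed after a gap by those of 6 h (2.10 ± 0.467 and 1.87 ± 0.242), and then by groups at or near 0. Detection differed between genes: Atf4, Ddit3, Ddit4 and Aldh18a1 had counts in every library, while Cth was at 0 in 30 of 51 and Chac1 in 15 of 51.

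Levels of different genes can be set side by side only per transcript length, for which the deposited TPM values (transcript shares corrected for length, rescaled so that each library sums to 1000000) were used. In NP at 1 h Atf4 made up 55.8% of the summed TPM of the 10 genes, at 183 TPM ± 48.6, followed by Ddit3 at 55.0 and Aldh18a1 at 52.7. In NP at 24 h Atf4 was at 103 TPM and Trib3 at 79.8, 39.9% and 30.8% of the sum. In MCC CD69-hi at 24 h the order was Atf4 at 335 TPM ± 15.1 (36.3%), Aldh18a1 at 229.7 (24.9%), Asns at 143 (15.5%) and Cth at 69.4 (7.53%), with Trib3 at 32.4, Sesn2 at 32.3, Ddit3 at 26.3, Ddit4 at 22.6, Pycr1 at 20.7 and Chac1 at 10.6. In NP at 24 h Aldh18a1 made up 10.2%, Asns 0.471% and Cth 0%, and in MCC CD69-hi at 24 h Trib3 made up 3.51%. These shares were not tested.

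**Figure D5:**
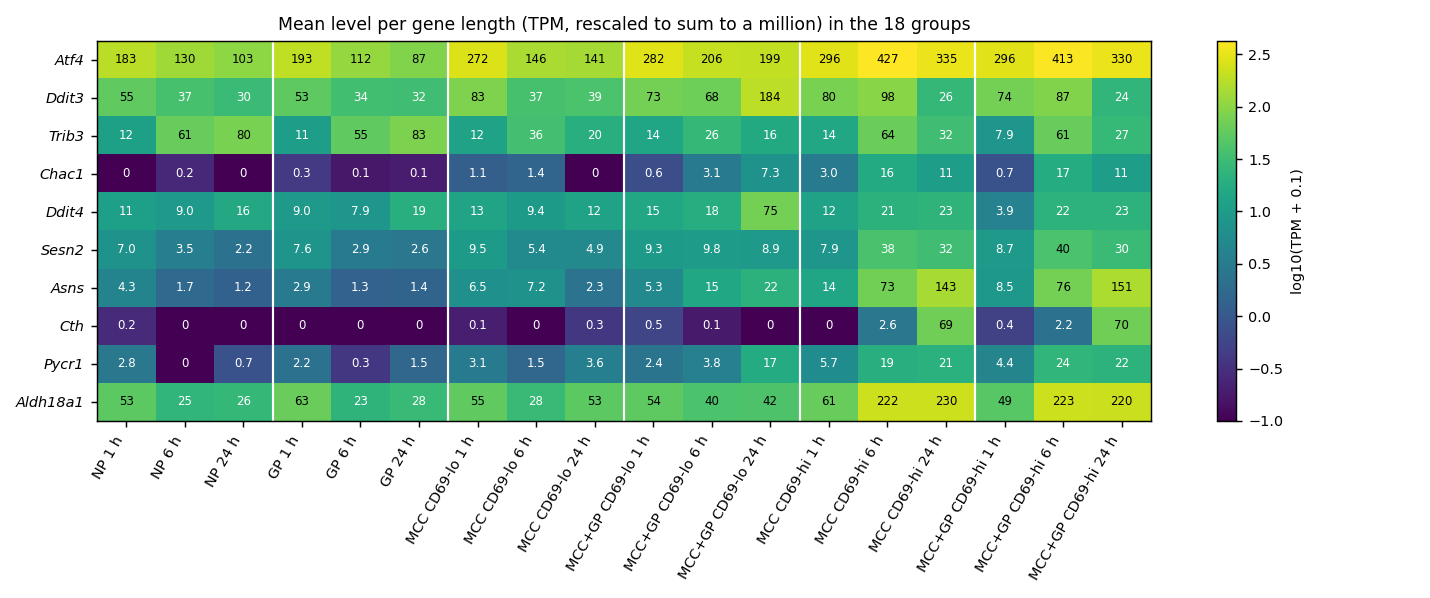
Mean TPM, a level per gene length rescaled to a sum of 1000000 per library, of each gene (rows) in each of the 18 groups (columns); colour is log10(TPM + 0.1) and the printed value is the mean. Atf4 is the highest gene in every group, Trib3 is next in NP and GP at 24 h, and Aldh18a1 and Asns follow Atf4 in the CD69-hi groups at 24 h.

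The wider pathway was described with lists of genes chosen from general knowledge. Of 42 further ATF4 targets, among them transporters, amino acid enzymes and tRNA synthetases, 40 were tested. In MCC CD69-hi against NP 9 rose and 2 fell at 1 h, 32 rose and 1 fell at 6 h, and 33 rose and 1 fell at 24 h, with medians of 0.14, 2.94 and 3.18 on the log2 scale; over all tested genes 29.4%, 46.7% and 57.8% were called in these comparisons. Psat1, of serine synthesis, rose by 5.50 (adjusted p = 4.5e-17) at 6 h and 6.92 (adjusted p = 4.4e-22) at 24 h after 0.38 at 1 h. The amino acid transporter Slc7a5 rose by 4.88 (adjusted p = 8.5e-13) at 6 h, and Slc6a9, a glycine transporter, by 6.18 (adjusted p = 1.3e-08). Slc6a9 was at 14.2 CPM in MCC CD69-hi and at 0.165 CPM (SD 0.233) in NP. That NP mean lies under the floor of 0.255 CPM for the group, so 6.18 sets no firm size. In NP from 1 to 24 h, where 24.0% of all genes were called, 1 of the 40 rose and 22 fell, among them Slc7a5 (-2.69) and Slc1a4 (-4.67), a transporter of neutral amino acids.

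Genes of the eIF2 branch and of the other unfolded protein branches were counted in the same way, against the same shares of all genes. Of 14 eIF2 kinases, phosphatases and eIF2B or eIF2 subunits, 7 rose and 2 fell at 6 h and 10 rose and 1 fell at 24 h. The kinase Eif2ak3 (PERK) fell by 2.34 at 6 h (adjusted p = 1.3e-13), while Eif2b3 rose by 3.06 and Eif2s2, an eIF2 subunit, by 2.50. Of 20 targets of ATF6 and XBP1, which answer to unfolded protein, 3 rose and 2 fell at 1 h, 18 rose and 1 fell at 6 h, and 17 rose and 1 fell at 24 h. The chaperone Hspa5 rose by 0.97 at 1 h (adjusted p = 0.0018) and by 3.63 at 6 h, and Sdf2l1 and Hyou1 by 4.70 and 3.72 at 6 h. Atf3, a bZIP partner that ATF4 is known to induce, was ahead of the set: it rose by 6.27 at 1 h (adjusted p = 5.7e-14), 4.31 at 6 h and 3.23 at 24 h.

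The relatives of the members were mixed in direction. Of 7 relatives among sestrins, tribbles and related mTORC1 inhibitors, 3 rose and 3 fell at 6 h. Sesn1 fell by 3.58 and Sesn3 by 1.93 at 6 h, where Sesn2 rose, and among the tribbles Trib1 rose by 4.17 and Trib2 fell by 2.98. Of 8 genes of proline metabolism apart from the members, 4 rose and 1 fell at 6 h, with Pycrl at 2.31 and Aldh4a1, which breaks proline down further, at -1.28. Of 12 genes of transsulfuration and glutathione, 6 rose and 2 fell, with Mat2a, which makes S-adenosylmethionine, at 2.70. For pathways that also reach Ddit4, at 6 h and beside 46.7% of all genes called, 2 of 8 glucocorticoid genes rose and 2 fell, and 5 of 11 hypoxia genes rose and 1 fell, with Vegfa at 4.19 and Pdk1 at -3.57. Beside these counts, 17 of 18 B cell markers were higher in MCC CD69-hi at 1 h and 10 at 6 h, while 1 was higher and 10 were lower at 24 h. Of 9 MHC class II genes 9 were higher at 1 h and 3 at 6 h, and of 21 tested myeloid and dendritic markers 11 were higher and 1 lower at 1 h and 7 higher and 1 lower at 6 h. At 24 h 4 of the 9 and 6 of the 21 were lower and 2 of the 21 were higher. The summed MHC class II level had a median of 4599 CPM in MCC CD69-hi at 1 h against 377 in NP, and the part of MHC class II and myeloid RNA in the members' values was not tested. With the summed B cell markers as a covariate, all 9 members called at 6 h were still called, and of the 9 called at 24 h only Ddit4 was not. Its slope rests on libraries within groups, where it goes with the plate round, so the part of B cell RNA between groups was not measured. In other comparisons this covariate ended 9 calls, among them Asns for MCC CD69-hi against NP at 1 h (0.08, adjusted p = 0.985), and the others are given beside their results. Of 13 tested bZIP partners 4 rose and 3 fell at 6 h, of 11 p53 targets 4 rose and 2 fell, of 12 CD4 T cell markers 3 rose and 6 fell, of 10 CD8 T and NK cell markers 1 rose and 4 fell, and of 10 stromal, endothelial and erythroid markers 1 rose and 1 fell.

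The genes whose pattern was most like each member's, by Pearson's r over the 18 group means of log2 CPM among 11158 genes, were listed as a description. For Atf4 they were Slc7a1 (0.977), Yrdc (0.974) and Etf1 (0.974). For Sesn2 they were Slc1a4 (0.981), Hsd17b7 (0.978) and Mthfd2 (0.976), of which Slc1a4 and Mthfd2 belong to the list of further ATF4 targets. Chac1 was most like Pdgfb (0.968) and Asns (0.963). Aldh18a1 was most like Utp14a (0.996), Smarca4 (0.989) and Sf3b3 (0.989), Pycr1 like Wdr83os (0.982) and Cd82 (0.976), and Cth like Tipin (0.985), Paics (0.982) and Tuba1b (0.981). Ddit3 was most like Igkv19-93 (0.910), Traf3 (0.906) and Fcer2a (0.899), of which the immunoglobulin segment Igkv19-93 and the B cell receptor gene Fcer2a are B cell genes. Trib3 was most like Zfp790 (0.936) and Ddit4 like Vps8 (0.860), the lowest of these maxima. With Atf4 itself the other members had r of 0.94 (Sesn2), 0.88 (Aldh18a1), 0.86 (Asns), 0.83 (Chac1), 0.81 (Pycr1), 0.60 (Cth), 0.52 (Ddit3), 0.20 (Ddit4) and -0.13 (Trib3); the 18 means share hours, sorts and library depths.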

How the data were processed

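RNA of sorted cells was sequenced as paired reads, per the labels' protocols, and the submitters' processing notes name bcl2fastq 2.20, STAR 2.6.1c, HTSeq 0.9.1 and mm10. The authors deposited whole-number counts per gene, which were used for every test, and TPM, whose columns sum to between 9985.77 and 9995.63 per library and were rescaled here to 1000000. Whether counting used strand is not given in the sources used here. Every column of both tables was matched to a library by its title, and 0 columns were left unused. The chi-square per degree of freedom between libraries of a group was 3.91 to 19.3, so none was a copy of another.

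Counts were normalised with TMM, filtered with filterByExpr by group and fitted for all 51 libraries in 1 model, with a term for each of the 18 groups, by edgeR 4.0.16 (robust quasi-likelihood F test, limma 3.58.1, R 4.3.3). P-values were adjusted by Benjamini and Hochberg over 17211 genes, with a threshold of 0.05, in 30 comparisons, of which the comparisons of MCC CD69-hi between times were added after the data had been seen. A group with 0 counts was given a floor of 3 counts over the group, and intervals are 95% and cover counting error only where they come from counts. Folds given as at least a value divide the observed mean of the other group by that floor. They leave out the spread of that other group. Alternatives were RLE size factors, no filter, DESeq2 1.42.0, the compared groups alone, a replicate block, each library left out, plain CPM, and, added after the data had been seen, the 3 shallowest libraries left out and the summed CPM of B cell markers as a covariate. The script was tested on simulated data.

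The members and the lists were chosen with earlier results of these data known. All 10 members are named throughout, with up to 4 genes of each other list that had the largest difference past the threshold between MCC CD69-hi and NP at 6 h, and the 3 genes most like each member among those reaching 10 CPM in a group. A search for motifs in promoters was planned and not done. Coordinates are those of the RefSeq table for GRCm38.p6, where 10 of 10 members matched by symbol. The lists count genes of the eIF2 branch, of ATF6 and XBP1, of bZIP partners, of proline, transsulfuration and glutathione metabolism, of sestrin and TRIB relatives, of glucocorticoid, hypoxia and p53 responses, and of other cell types.

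Libraries carry a plate well in their title but no replicate number shared between groups. Wells fall into rounds of 18, and libraries of the same round and time deviated together in 93 of 110 pairs (correlation over 0.1, median 0.34 over 4535 genes). By a rule of 3 pairs, each over 0.1, the rounds paired the libraries in 9 of the comparisons, and there the block changed no call on a member. Comparisons with 2 pairs could not meet this rule, whatever their correlation. In every group the lowest summed B cell level was in the library of the same round. The B cell covariate was fitted beside the group terms, so its slope cannot be told apart from a difference between rounds.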

Additional observations from a re-analysis of the deposited data

Results flagged for a closer look

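The listed results are those where the difference made by the agonist itself differed between times by edgeR's test of the change. From 1 to 6 h the log2 difference between MCC CD69-hi and NP grew by 1.36 for Atf4, 1.15 for Ddit3, 3.83 for Asns, 3.56 for Sesn2, 1.45 for Ddit4 and 3.30 for Aldh18a1. Cth and Pycr1 also passed there, at 8.84 and 8.88, values that rest on groups at 0, depend on the prior count of the fit and set no size. In the presence of GP, MCC+GP CD69-hi minus GP grew over the same hours by 1.45 for Atf4, 6.43 for Chac1, 4.49 for Asns, 3.77 for Sesn2, 2.89 for Ddit4, 5.40 for Pycr1 and 3.83 for Aldh18a1. Of these, Chac1 had 6 counts in GP and 3 in MCC+GP CD69-hi at 1 h, and 1 in GP at 6 h. Pycr1 had 3 counts in GP at 6 h, and Ddit4 had 16 in MCC+GP CD69-hi at 1 h. The sizes for Chac1 and Pycr1 are therefore near the floor and set no firm size, and that for Ddit4 rests on few reads. The Chac1 value missed the threshold without GP replicate 1 of 1 h (5.31, adjusted p = 0.0665).

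From 6 to 24 h the change went down for Ddit3 in both arms, at -1.63 for MCC CD69-hi minus NP and -1.81 for MCC+GP CD69-hi minus GP. Trib3 (-1.79) and Ddit4 (-1.25) were lower in the MCC+GP arm. For Trib3 the MCC arm gave -1.46 (adjusted p = 0.083), which passed with the replicate block (adjusted p = 0.0192); whether the arms differ was not tested.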

How the results depend on the processing

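Over the 30 comparisons the number of members called moved by more than 1.5 times under some alternative in 7, and no member's called difference changed sign. The calls on MCC CD69-hi against NP or MCC CD69-lo at 6 and 24 h and on MCC+GP CD69-hi against GP at those hours stayed within that range. For MCC CD69-lo against NP the 1 call of 1 h became 2 with no filter and 3 with the B cell covariate, and the 0 calls of 6 h became 2 with no filter, 2 with DESeq2, 1 with the compared groups alone, 2 with the replicate block and 1 with the B cell covariate. The 0 calls of MCC CD69-hi against MCC CD69-lo at 1 h became 1 with the replicate block. The 2 calls of MCC+GP CD69-lo against MCC CD69-lo at 24 h became 4 with RLE size factors, 4 with DESeq2 and 1 with the compared groups alone. The 2 calls of MCC+GP CD69-hi against GP at 1 h became 1 with RLE size factors, with no filter, with the compared groups alone, with the replicate block and with the 3 shallowest libraries left out. The 1 call on the change of the MCC difference from 6 to 24 h became 2 with no filter, 2 with DESeq2, 3 with the compared groups alone, 2 with the replicate block and 5 with the B cell covariate. The 4 calls within MCC CD69-hi from 6 to 24 h became 2 with no filter and 7 with the compared groups alone. Calls over all genes differed between fits as well. With no filter 34923 genes were tested instead of 17211. In this last comparison 3321 were then higher and 2761 lower, against 3672 and 2905 in the main fit. For MCC CD69-lo against NP at 6 h these numbers were 460 and 2, against 365 and 0. With RLE size factors MCC+GP CD69-lo against MCC CD69-lo at 24 h had 1739 and 1309, against 1268 and 2058. The cause of these moves was not tested, other than that fits of the compared groups alone use fewer libraries.

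Leaving out 1 library gave 1 to 2, 0 to 1 and 1 to 3 calls for MCC CD69-lo against NP at 1, 6 and 24 h, 1 to 4 for MCC+GP CD69-lo against MCC CD69-lo at 24 h, 0 to 1 for MCC+GP CD69-hi against GP at 1 h, 1 to 3 for the change of the MCC+GP difference from 6 to 24 h, and 2 to 3 within MCC CD69-hi from 6 to 24 h. Outside the 9 comparisons that met the rule of 3 pairs, the replicate block changed some calls. It added those on Asns and Pycr1 for MCC CD69-lo against NP at 6 h (2.35 and, with NP at 0, no size) and ended that on Ddit4 for MCC+GP CD69-hi against GP at 1 h (-0.95). These comparisons had 2 pairs each, at a correlation of 0.27 for the first and of 0.19 and 0.37 for the second. In the first, each group has 2 libraries, whose deviations from the group mean are equal and opposite. Its 2 pairs therefore share a single value by construction. The block also added Asns for MCC CD69-hi against MCC CD69-lo at 1 h, for MCC+GP CD69-lo against MCC CD69-lo at 24 h and for NP between 1 and 24 h, Trib3 for MCC CD69-hi against MCC CD69-lo at 6 h and for the change of the MCC difference from 6 to 24 h, and Ddit3 for the change of the MCC+GP difference from 1 to 6 h. For MCC CD69-hi against MCC CD69-lo the 2 pairs were at 0.13 and 0.35 at 1 h and at 0.38 and 0.51 at 6 h. No call changed in the 9 comparisons that met the rule. Of the members' values under the alternative fits of all kinds but left-out libraries, 2001 kept their state, called or not called, 54 gained a call and 30 lost it. With libraries left out in turn, 2065 kept their state, 8 gained a call and 67 lost it. Values that were not called in either fit are among those that kept their state. RLE size factors moved the median of all genes by up to 0.30 (log2), DESeq2 by up to 0.43, the compared groups alone by up to 0.17 and the B cell covariate by up to 0.12; the members' differences are relative to those medians. With plain CPM 156 of 180 group levels stayed within 1 SD. Depth limits MCC+GP CD69-lo at 24 h most, which hold 29030 to 301455 counts.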

Other observations

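In MCC+GP CD69-lo at 6 h, Asns was at 8.81, 9.63 and 15.6 CPM and Chac1 at 1.10, 4.66 and 5.93, between the values of NP and those of the CD69-hi groups at the same hour. Ddit3 in the same group was at 26.3, 65.9 and 36.7 CPM, and its replicate 2 reached the level of the CD69-hi libraries. In GP at 24 h Trib3 was at 65.8, 70.2 and 63.2 CPM, the highest group mean of the series for this gene. The single MCC+GP CD69-hi library of 1 h with no Trib3 read (replicate 2) and the MCC+GP CD69-lo library of 24 h with none (replicate 2) were the only libraries of 51 at 0 for Trib3.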
